A study of Mus musculus with 5 samples.

Results

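Notch receptors and their ligands were followed across the cells of the mouse mammary gland. The set held 8 of the 32285 genes in the count tables, chosen by gene symbol: the receptors Notch1, Notch2, Notch3 and Notch4, and the ligands Dll1, Dll4, Jag1 and Jag2. All 8 were found in the tables and all had UMIs in each of the 5 libraries. They were counted in 28588 of 32472 cell barcodes, those that held 500 or more genes and no more than 15% of UMIs from mitochondrial genes. Taking out predicted doublets left 26834 cells.

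A Notch receptor sits in the cell membrane and is bound by a Delta-like or Jagged ligand on a neighbouring cell. Binding lets an ADAM protease and then gamma-secretase cut the receptor, and the freed intracellular domain joins RBPJ in the nucleus, where Hes and Hey genes are among its targets. In the mammary gland the pathway is known for its part in luminal cell fate, and in blood vessels Dll4 with Notch1 restrains sprouting, while Notch3 is known from mural cells.

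The series compared whole mammary tissue of mice labelled Frmd3 KO (3 libraries, KO1, KO2 and KO3) with that of mice labelled WT (2 libraries, WT1 and WT2), using the 3′ droplet kit of 10x Genomics, which tags each captured transcript with a unique molecular identifier (UMI). Its title links FRMD3, a FERM domain protein, to epithelial cell fate through Notch signalling. Strain, age, sex, reproductive stage and the design of the Frmd3 allele are not given in the labels, and no treatment is named for either group. After filtering, 2218 to 9450 cells were left per KO library and 4831 to 5895 per WT library, with median depths of 4163 to 12963 UMIs in KO and 8623 to 12144 UMIs in WT. Frmd3 itself stood at 1.85 to 3.14 CPM (the usual scaling of a gene's UMIs by all UMIs summed) in the KO libraries and at 1.41 to 2.32 in the WT libraries. In epithelial cells, grouped as described below, it had 4 UMIs over all KO libraries and 0 over all WT libraries, too few to compare. A 3′ tag outside the deleted part checks nothing, and since the labels do not say which part that is, the genotype labels could not be checked this way. KO and WT below mean the libraries so labelled.

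Cells were grouped without using the 8 genes. Of 32 clusters, 29 were named from marker lists and fell into 16 classes, each called by its markers with the ending "-like". The 3 unnamed clusters are called by their first leading gene: Wfdc17 (3917 cells, 3824 of them from KO1), Krtdap (3447 cells) and Sfrp5 (66 cells). The Wfdc17 cluster scored highest on the fibroblast list, with all 8 of its markers detected. Its leading genes held none of them but Lyve1 and C1qb of other lists, so it was left unnamed. The Krtdap cluster holds fibroblast markers, whose summed level reached 63008 CPM in it. The erythroid-like class was 93 cells, all from WT1. Its 5 markers summed to 1533 CPM there, against up to 1007 in other groups of cells. Igha, Jchain, Syn2 and Slc5a5 were also among its leading genes, and Syn2 and Slc5a5 were shared with a hormone-sensing cluster. The name of this class is therefore uncertain. The lowest library of a named class had a higher sum of its own markers than any library of any other group of cells, except for the basal/myoepithelial, dendritic, fibroblast, macrophage and monocyte lists. Between 1 and 21 barcodes of the cells kept were shared by any pair of libraries. A level is the CPM of a gene in the summed UMIs of a class in a library, for libraries with at least 20 cells of the class. Such levels are not scaled by gene length, so each gene is compared with itself across cells and not with another gene.

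The genes lie on chromosomes 2, 3, 12 and 17 (mm10, GENCODE M21 models). Notch1 is at chr2:26457903-26516663, Dll4 at chr2:119325784-119335962 and Jag1 at chr2:137081456-137116644. Notch2 is at chr3:98013527-98150361 and Jag2 at chr12:112907819-112929776. Chromosome 17 holds Dll1 at chr17:15367354-15376872, Notch3 at chr17:32120820-32166852 and Notch4 at chr17:34564268-34588503. Notch2, Notch4 and Dll4 are on the plus strand and the other members on the minus strand. Gene models on the opposite strand overlap Notch1 (0610009E02Rik and Gm13568), Notch3 (Gm17276), Notch4 (Gm20462), Dll1 (A930024N18Rik) and Dll4 (Gm14207). The sources used here do not state whether counting used the strand, so it is not known here whether reads of these pairs were told apart. Models on the same strand lie within Notch1 (Mir6996), Notch2 (Gm42819 and Gm42820) and Jag2 (Mir6941), where strand could not separate the reads. Whether the annotation used for counting held any of these overlapping models is not given either. No other gene model overlaps Jag1.

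Promoter windows are shown for the 4 genes whose levels rest most on a few classes. Notch4 and Dll4 were found mainly in blood endothelial-like cells, and Dll1 and Jag2 in basal/myoepithelial-like and blood endothelial-like cells . Each window of 300 bases runs from 250 before to 50 after a RefSeq start (GRCm38.p6, 5′ to 3′ on the gene's strand). RefSeq lists 2 starts for Dll1. The windows are chr17:34564045-34564344 for Notch4 and chr2:119325534-119325833 for Dll4 on the plus strand, and chr12:112929446-112929745 for Jag2, chr17:15375774-15376073 for Dll1 window 1 and chr17:15376883-15377182 for Dll1 window 2 on the minus strand. Capitals mark matches to AGGAAG or its reverse complement CTTCCT, the core bound by ETS factors.
Notch4: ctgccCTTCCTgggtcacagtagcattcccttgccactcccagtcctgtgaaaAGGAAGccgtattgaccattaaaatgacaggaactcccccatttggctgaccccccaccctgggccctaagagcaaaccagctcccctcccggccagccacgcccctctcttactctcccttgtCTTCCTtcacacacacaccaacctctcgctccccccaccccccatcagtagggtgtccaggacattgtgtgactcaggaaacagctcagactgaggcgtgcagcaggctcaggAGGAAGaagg
Dll4: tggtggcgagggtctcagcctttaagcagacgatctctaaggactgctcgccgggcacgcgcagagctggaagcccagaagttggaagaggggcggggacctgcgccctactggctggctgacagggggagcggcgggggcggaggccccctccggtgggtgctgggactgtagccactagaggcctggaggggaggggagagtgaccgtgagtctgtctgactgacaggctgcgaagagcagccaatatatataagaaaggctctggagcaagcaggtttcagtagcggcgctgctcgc
Jag2: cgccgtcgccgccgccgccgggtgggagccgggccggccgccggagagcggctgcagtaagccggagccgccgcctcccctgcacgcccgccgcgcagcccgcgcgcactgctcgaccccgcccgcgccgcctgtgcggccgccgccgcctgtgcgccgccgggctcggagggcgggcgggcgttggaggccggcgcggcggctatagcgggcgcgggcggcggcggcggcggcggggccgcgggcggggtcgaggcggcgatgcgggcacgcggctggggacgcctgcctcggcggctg
Dll1 window 1: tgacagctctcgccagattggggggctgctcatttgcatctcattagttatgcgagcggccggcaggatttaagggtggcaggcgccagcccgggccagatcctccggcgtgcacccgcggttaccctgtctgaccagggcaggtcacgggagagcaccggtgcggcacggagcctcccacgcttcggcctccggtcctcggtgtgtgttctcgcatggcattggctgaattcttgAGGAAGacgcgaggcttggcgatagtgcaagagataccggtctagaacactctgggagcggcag
Dll1 window 2: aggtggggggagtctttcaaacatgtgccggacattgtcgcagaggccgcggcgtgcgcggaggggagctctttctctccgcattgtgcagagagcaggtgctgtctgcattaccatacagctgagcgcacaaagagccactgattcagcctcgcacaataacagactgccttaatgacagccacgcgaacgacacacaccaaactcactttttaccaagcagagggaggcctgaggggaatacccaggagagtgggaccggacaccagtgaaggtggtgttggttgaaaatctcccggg

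The motif AGGAAG was searched on both strands, and 35.4% of all 32851 RefSeq promoter windows of the mouse hold it. It was found 4 times in the Notch4 window, 1 time in Dll1 window 1, and in no other of the 9 windows of the 8 members. The motif TGGGAA, the core bound by RBPJ, is held by 25.6% of all windows and by 0 of the 9. No match of one motif overlapped a match of the other. GC content was 86.0% in the Jag2 window and 58.3% in the Notch4 window, against a median of 52.7% over all windows.

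Notch1, the receptor best known from vessels, T cells and luminal epithelium, was found at 10 CPM or more in all 16 named classes. Blood endothelial-like cells had 420 and 301 CPM in KO2 and KO3, and 326 and 433 in WT1 and WT2, a mean of 370 ± 66.6 (SD, n = 4). Only 2 such cells came from KO1, which therefore gives no value. Every endothelial library was above every library of every other class. Luminal progenitor-like cells came next, with 126, 115 and 205 in KO1, KO2 and KO3, and 142 and 142 in WT1 and WT2. Their range overlapped that of macrophage-like cells, at 143, 69.3 and 87.1 in KO and 105 and 86.4 in WT. At the low end of the named classes stood basal/myoepithelial-like cells, with 20.5, 14.3 and 36.5 in KO and 15.7 and 18.6 in WT. The Krtdap cluster was lower than these in every library, at 0.97 to 1.999 in KO and 1.28 to 1.93 in WT, resting on 2 to 35 UMIs a library. With each cell thinned to 2000 UMIs, which left out 1397 of 16108 KO cells and 596 of 10726 WT cells, a Notch1 UMI was seen in 48.1% of endothelial, 26.4% of luminal progenitor and 0.522% of Krtdap cells (means over libraries). Without thinning these shares were 81.9%, 65.9% and 2.24%, at median depths of 7780, 10162 and 15581 UMIs, so the Krtdap cells had the lowest share at the greatest depth.

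Notch2, a receptor that works in marginal zone B cells and in dendritic and other myeloid cells of the mouse, had another order. Neutrophil-like cells had 231 CPM in KO2 and 224 in WT2, with 25 and 58 UMIs behind these values. Monocyte-like cells followed, at 127 in KO2, and at 167 and 147 in WT1 and WT2. Macrophage-like cells held 115, 76.6 and 125 in KO and 119 and 112 in WT, and dendritic-like cells 73.4, 68.4 and 64.4 in KO and 83.8 and 92.5 in WT. The first 2 classes of this order stood apart from the next one down, while macrophage-like and dendritic-like cells overlapped. The Krtdap cluster, lowest of all for Notch1, had 86.5, 74.2 and 51.5 in KO and 91.6 and 75.2 in WT. Blood endothelial-like cells, highest of all for Notch1, were lowest for Notch2 with 7.18 and 4.73 in KO2 and KO3 and 5.13 and 15.5 in WT1 and WT2, on 2 to 11 UMIs a library. After thinning, a Notch2 UMI was seen in 33.6% of neutrophil-like cells and 14.6% of Krtdap cells, against 1.53% of basal/myoepithelial-like cells. Without thinning the shares were 44.5%, 58.4% and 15.3%, at median depths of 2799, 15581 and 9831 UMIs.

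Notch3, the receptor of mural cells, stood at 717, 662 and 878 CPM in pericyte/vascular smooth muscle-like cells of KO1, KO2 and KO3, and at 626 in those of WT1. WT2 held 5 such cells and gives no value. Each of these 4 libraries was above every library of every other class. Hormone-sensing luminal-like cells had 40.1, 45.4 and 94.3 in KO and 43.3 and 44.4 in WT, and luminal progenitor-like cells 39.8, 39.7 and 75.2 in KO and 47.2 and 47.3 in WT. KO3 was the high library in both luminal classes, and the other 4 lay close together. In the same KO3 hormone-sensing cells the 10 luminal progenitor markers summed to 3300 CPM, against 319 to 697 in the other libraries, and their part in the Notch3 level was not tested. After thinning, 68.1% of pericyte-like cells held a Notch3 UMI, and 10.2% of hormone-sensing and 10.1% of luminal progenitor-like cells did, against 0.148% of macrophage-like cells. Without thinning they were 89.6%, 55.4%, 39.3% and 1.02%, at median depths of 8269, 17345, 10162 and 4251 UMIs.

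Notch3 in blood endothelial-like cells was uneven, with 6.52 and 132 CPM in KO2 and KO3, and 64.1 and 0 in WT1 and WT2. The 9 pericyte markers, summed in the same cells, stood at 226 and 1561 in KO2 and KO3, and at 605 and 108 in WT1 and WT2. Libraries with more pericyte marker UMIs thus had more Notch3, and the part of those markers in the Notch3 level was not tested. None of the 9 markers was at 0 in KO2, KO3 or WT1, and 6 of them were at 0 in WT2, which had 23 endothelial cells.

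Notch4, an endothelial receptor, had 58.1 and 56.1 CPM in blood endothelial-like cells of KO2 and KO3, and 41.0 and 65.0 in those of WT1 and WT2. No other class had a mean above 3.17. In 7 of the 16 named classes no Notch4 UMI was counted at all, among them basal/myoepithelial-like cells, where 3 UMIs would have stood for 1.86 to 6.13 CPM. After thinning, 11.2% of endothelial cells had a Notch4 UMI, against 0% of B cell-like cells (0 of 276 in KO1, an exact Clopper-Pearson upper bound of 1.33%). Without thinning the shares were 38.2% and 0%, at median depths of 7780 and 4078 UMIs. Such bounds, and the level that 3 UMIs stand for, cover counting error only.

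**Figure D1:**
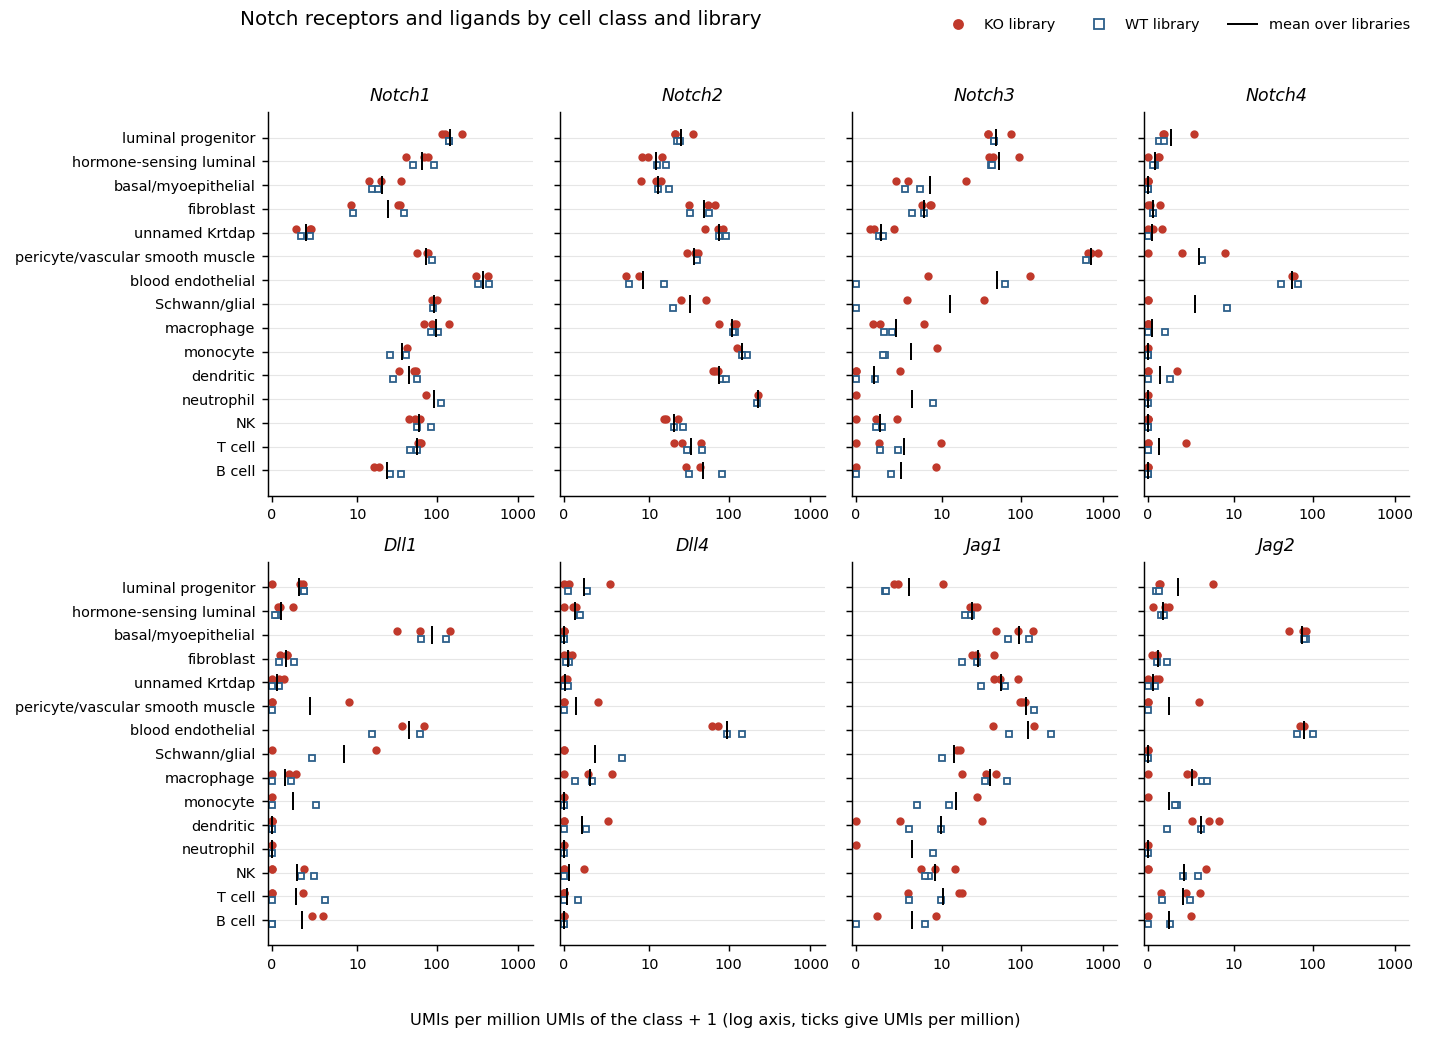
Level of each gene as CPM of a class, plus 1, on a log axis, for the Krtdap cluster and all named classes but erythroid-like and mast/basophil-like. Filled circles are KO libraries, open squares WT libraries and black bars means over libraries. Notch4 and Dll4 are high in blood endothelial cells, Notch3 in pericytes at 626 to 878, and Dll1 and Jag2 in basal and endothelial cells.

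Among the ligands, Dll4, known for its role in sprouting vessels, followed the endothelium. Blood endothelial-like cells had 75.0 and 62.2 CPM in KO2 and KO3, and 94.9 and 146 in WT1 and WT2. The Wfdc17 cluster had a mean of 5.02, and the next named class, erythroid-like, 1.83 in its only library, from 1 UMI. Basal/myoepithelial-like cells had no Dll4 UMI in any of the 5 libraries. After thinning, 14.1% of endothelial cells had a Dll4 UMI, against 0% of NK-like cells (0 of 722 in WT2, an exact upper bound of 0.51%). Without thinning the shares were 40.02% and 0.0866%, at median depths of 7780 and 5080 UMIs.

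Dll1, a Delta-like ligand that mouse basal mammary cells are known to make, was found in 2 named classes at 10 CPM or more. Basal/myoepithelial-like cells had 148, 63.3 and 32.6 in KO1, KO2 and KO3, and 130 and 65.0 in WT1 and WT2. The spread was wide, with KO1 and WT1 high and KO3 lowest, and the 32 to 135 cells behind each value held 17 to 174 Dll1 UMIs. Blood endothelial-like cells had 70.4 and 37.2 in KO2 and KO3, and 15.4 and 61.9 in WT1 and WT2. This range overlapped that of basal cells, and its lowest value, in WT1, was below every basal library. Every other named class had a mean of 7.30 or less. A Dll1 UMI was seen in 18.3% of thinned basal cells, against 0.0459% of hormone-sensing cells, and in 51.6% and 0.338% without thinning, at median depths of 9831 and 17345 UMIs.

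Jag2, a Jagged ligand, shared the same 2 classes. Basal/myoepithelial-like cells had 82.1, 51.0 and 74.9 CPM in KO, and 82.9 and 77.3 in WT, a mean of 73.6 ± 13.1 (SD, n = 5). Blood endothelial-like cells had 78.3 and 69.6 in KO2 and KO3, and 64.1 and 102 in WT1 and WT2. The ranges of these classes overlapped, and both stood apart from every other class, where the mean did not pass 6.14. After thinning, 18.8% of basal and 20.1% of endothelial cells had a Jag2 UMI, against 0.196% of hormone-sensing cells. Without thinning the shares were 51.6%, 43.2% and 0.921%.

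Jag1, the other Jagged ligand, was spread more widely, at 10 CPM or more in 10 of the 16 named classes. The small Sfrp5 cluster had 105 in KO2 and 153 in WT2. Blood endothelial-like cells had 145 and 45.3 in KO2 and KO3, and 71.8 and 235 in WT1 and WT2. The 8 fibroblast markers in these endothelial cells summed to 1146 and 877 in KO2 and KO3, and to 195 and 2833 in WT1 and WT2; their part in the Jag1 level was not tested. Pericyte-like cells had 98.8, 104 and 114 in KO and 146 in WT1, and basal/myoepithelial-like cells 49.7, 141 and 92.1 in KO and 70.2 and 127 in WT. These 4 groups of cells overlapped in range. Luminal progenitor-like cells stood low, at 1.94, 2.25 and 10.4 in KO and 1.23 and 1.29 in WT, and the highest of these values rests on 4 UMIs in 47 cells. After thinning, a Jag1 UMI was seen in 14.998% of basal cells, 5.91% of hormone-sensing cells and 0.134% of luminal progenitor cells, whose median depths were 9831, 17345 and 10162 UMIs. Without thinning the shares were 47.5%, 32.3% and 3.38%.

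**Figure D2:**
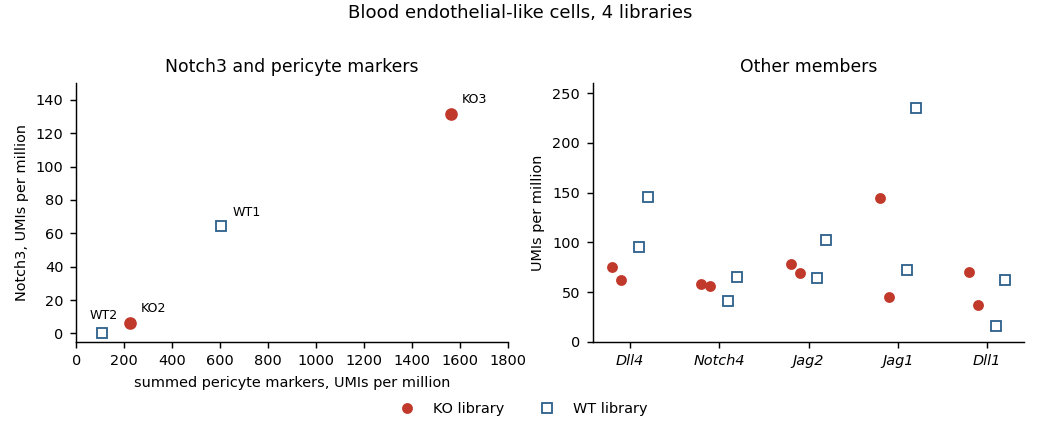
Blood endothelial-like cells of the 4 libraries with at least 20 of them. Left, Notch3 against the summed pericyte markers, both in CPM, from 0 and 108 in WT2 up to 132 and 1561 in KO3. Right, Dll4, Notch4, Jag2, Jag1 and Dll1, with filled circles for KO and open squares for WT. Both KO libraries are below both WT libraries for Dll4.

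Small classes held a large part of some genes' UMIs. Blood endothelial-like cells were 2.33% of cells (mean over libraries) and held 65.7% of the Dll4 UMIs and 59.3% of the Notch4 UMIs. Basal/myoepithelial-like cells were 1.53% of cells and held 50.3% of the Dll1 and 43.4% of the Jag2 UMIs. Pericyte-like cells were 0.90% of cells with 17.4% of the Notch3 UMIs, while hormone-sensing cells held 49.6% of them. These shares follow the make-up of each library. For Dll4 the endothelial share was lowest in KO1, at 5.56%, where 2 endothelial cells were found, and reached 94.8% in the highest library. For Notch4 it ran from 0% to 90.2%. The Wfdc17 cluster, with 3824 of its 3917 cells from KO1, held up to 61.1% of a library's Dll4 UMIs and up to 42.9% of its Notch4 UMIs. These rest on 12 Dll4 and 6 Notch4 UMIs of the cluster over all libraries. KO1 held 47 Dll4 UMIs before its 916 predicted doublets were taken out. The part of their removal in the low KO1 share was not tested. For Notch1 the largest shares lay in hormone-sensing (32.9%) and luminal progenitor-like cells (21.9%), and for Notch2 in the Krtdap cluster (29.9%) and fibroblast-like cells (29.8%). In that order these groups were 16.0%, 7.97%, 12.8% and 24.4% of cells. Hormone-sensing and Krtdap cells also had the greatest median depths, at 17345 and 15581 UMIs.

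Between the 3 epithelial classes the receptors Notch1 and Notch3 were higher in luminal than in basal/myoepithelial-like cells, and the ligands Dll1, Jag1 and Jag2 were lower. These folds come from 1 edgeR fit over 12260 genes with the library as a block, tested by edgeR's quasi-likelihood test with Benjamini-Hochberg adjustment at 0.05. Of the tested genes, 50.3% passed between luminal progenitor-like and hormone-sensing cells, 44.5% between luminal progenitor-like and basal cells, and 52.7% between hormone-sensing and basal cells. By direction 23.3% were higher and 27% lower in the first of these comparisons, 22.1% and 22.4% in the next, and 27.9% and 24.8% in the last. Of the 6 members tested, 4, 6 and 5 passed in these comparisons, so the sizes say more than the counts. Median log2 folds of the 6 members were 0.48, -2.24 and -0.91, against -0.05, 0.02 and 0.07 over all genes tested. Notch4 and Dll4 had too few UMIs to be tested. The classes were drawn on other genes of the same cells, and p-values here measure the spread between libraries only.

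Luminal progenitor-like cells over basal cells gave a log2 fold of 3.27 ± 0.25 (SE) for Notch3 (adjusted p = 1.12e-07) and 2.97 ± 0.22 for Notch1 (adjusted p = 8.25e-08), higher in 5 of 5 libraries each. The per-library levels of Notch1 were 115 to 205 in luminal progenitor-like cells and 14.3 to 36.5 in basal cells. Notch3 in basal cells had 3.24, 2.04 and 21.1 CPM in KO and 2.99 and 4.95 in WT, on 1 to 11 UMIs a library, with KO3 far above the rest. In the same basal cells the luminal progenitor markers summed to 2025, 2473 and 3490 in KO and 3056 and 3121 in WT. The hormone-sensing markers there summed to 252, 839 and 1161 in KO and 359 and 984 in WT, both sums being highest in KO3, and their part in the basal Notch3 level was not tested. Notch2 was higher by 0.94 ± 0.25 (adjusted p = 0.00689), also in 5 of 5. The ligands fell by 7.29 ± 0.38 for Jag2, 5.99 ± 0.38 for Dll1 and 5.43 ± 0.30 for Jag1 (adjusted p = 2.26e-09, 3.58e-08 and 6.43e-09), lower in 5 of 5 libraries each. Of all tested genes, 0.677% lay at least as far down as Jag2, 1.21% as Dll1 and 1.62% as Jag1, and 2.68% lay at least as far up as Notch3.

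Hormone-sensing cells over basal cells gave 3.28 ± 0.25 for Notch3, 1.82 ± 0.22 for Notch1 and -1.80 ± 0.22 for Jag1, each in 5 of 5 libraries (adjusted p from 6.15e-08 to 7.01e-06). Dll1 fell by 8.16 ± 0.40 and Jag2 by 6.90 ± 0.31, (adjusted p = 2.64e-09 and 4.22e-10), and 0.432% and 1.08% of tested genes lay at least as far down. The hormone-sensing sums held 0.0931 to 0.802 Dll1 CPM, on 1 to 7 UMIs a library. Notch2 had a fold of -0.02 ± 0.25 (adjusted p = 0.953), at 7.91 to 16.5 CPM in hormone-sensing cells and 7.68 to 17.9 in basal cells. The hormone-sensing clusters differed between libraries: the Fgb cluster held 69.2% of these cells in KO2 and 69.6% in WT2, the Aoc1 cluster 78.2% in KO1 and 84.1% in WT1, and the Ttc6 cluster 82.9% in KO3.

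The luminal classes differed from each other most in Jag1, which was lower in luminal progenitor-like than in hormone-sensing cells by -3.63 ± 0.29 (adjusted p = 2.32e-07), in 5 of 5 libraries. Its levels were 1.23 to 10.4 CPM in luminal progenitor-like cells and 20.5 to 28.9 in hormone-sensing cells. Notch1 was higher by 1.15 ± 0.18 and Notch2 by 0.96 ± 0.20, both in 5 of 5 libraries (adjusted p = 8.23e-05 and 0.000918). Dll1 was higher by 2.16 ± 0.57 (adjusted p = 0.00593) in 4 of 5 libraries, with 0 to 12 UMIs a library in luminal progenitor-like cells. Notch3 had a fold of -0.01 ± 0.16 (adjusted p = 0.983) and Jag2 one of -0.39 ± 0.54 (adjusted p = 0.572). Within luminal progenitor-like cells Notch1 stood at 173, 183 and 238 in the BC006965 cluster of KO1, KO2 and KO3 and at 206 in that of WT1, against 115 and 111 in the Plet1 cluster of KO1 and KO2 and 131 and 142 in that of WT1 and WT2. KO3, the library with the highest Notch1 in this class, had 61.7% of its cells of the class in the BC006965 cluster.

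**Figure D3:**
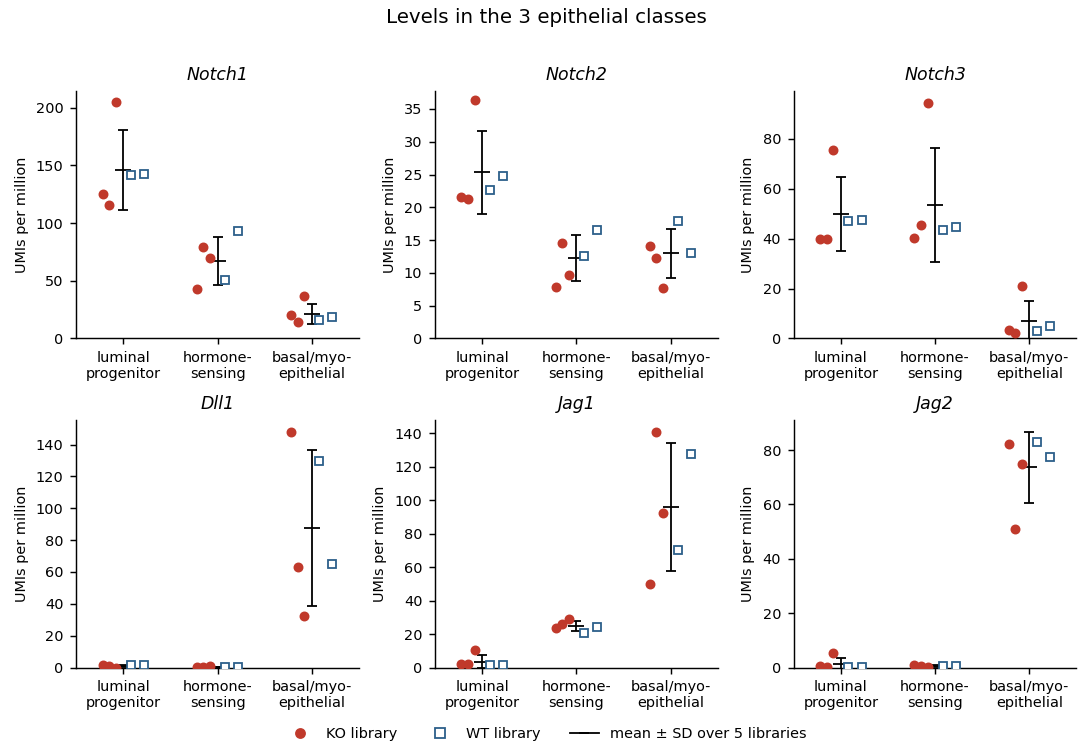
Levels in luminal progenitor-like, hormone-sensing luminal-like and basal/myoepithelial-like cells, in CPM; filled circles are KO libraries, open squares WT libraries and bars the mean ± SD over 5 libraries. Notch1 and Notch3 are lowest in basal cells, while Dll1 and Jag2 lie near 0 in both luminal classes and reach 148 and 82.9 in basal cells.

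The other genes of the pathway were counted in the same comparisons, to be read against the 44.5%, 52.7% and 50.3% of all genes that passed in the order given here. Unlike the 8 members, they were not held out of the genes that could draw the clusters. Their folds may therefore partly follow from the clustering, which was not tested. Of 35 tested, 11 were higher and 9 lower in luminal progenitor-like than in basal cells, with a median log2 fold of 0.26. Dlk2, a Delta-like relative without the Notch-binding DSL domain, was at -7.42 ± 0.71 (SE) and Lfng, which adds sugars to Notch receptors, at -2.88 ± 0.50. Nrarp, a Notch target and feedback inhibitor, was at 3.75 ± 0.37, and Neurl1a, of the neuralized ubiquitin ligases, at -2.56 ± 0.83. Between hormone-sensing and basal cells 13 were higher and 12 lower (median 0.31), with Dlk2 at -9.01 ± 0.67, Dtx4 of the deltex family at 3.70 ± 0.38, and the target genes Hey2 and Hes1 at -3.52 ± 0.92 and 2.98 ± 0.33. Between luminal progenitor-like and hormone-sensing cells 8 were higher and 11 lower (median 0.12), a share near that of all genes, with Hey2 at 4.84 ± 0.55, Hey1 at 4.29 ± 0.53, Neurl1a at -2.83 ± 0.57 and Nrarp at 2.81 ± 0.24. Each of these passed edgeR's threshold in the comparison given. Hes1, named for this comparison after its values were seen, was at -0.99 ± 0.29 (adjusted p = 0.0141, edgeR) in luminal progenitor-like over hormone-sensing cells, the opposite direction to Hey1 and Hey2.

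Fibroblast-like cells were 24.4% of cells (mean over libraries) and held 29.8% of the Notch2 and 25.5% of the Jag1 UMIs. These cells differed widely in Notch1. Their Notch1 level was 33.7, 8.24 and 34.8 CPM in KO1, KO2 and KO3, and 39.9 and 8.68 in WT1 and WT2, so KO2 and WT2 were low and the other 3 high. The clusters within the class differed in the same gene. The Scg3 cluster had 49.0, 36.7 and 42.8 in KO and 57.7 and 25.7 in WT, while the Ccn5 cluster had 3.48, 1.46 and 1.83 in KO and 7.22 and 1.93 in WT. The Akr1c14 cluster had no Notch1 UMI in KO1, KO2, KO3 and WT2, and 1 UMI in WT1. The Scg3 and Stra6 clusters, picked after their Notch1 values were seen, made up 64.8%, 6.67% and 74.5% of the fibroblast-like cells in KO and 62.2% and 12.4% in WT. KO2 and WT2, the libraries low in Notch1, had few cells of these clusters. As the clusters were picked with their Notch1 known, this is no test of the make-up. Within the Scg3 cluster KO2 and WT2 also had the lowest Notch1. The part of the make-up in the Notch1 level of the class was not tested. Notch2 was found in every cluster, with means of 79.8 in the Stra6 and 55.5 in the Scg3 cluster at the high end, and of 24.2 in the Tspan11 and 22.4 in the Apod cluster at the low end. The Apod values ran from 6.43 to 40.7 on 1 to 11 UMIs a library.

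**Figure D4:**
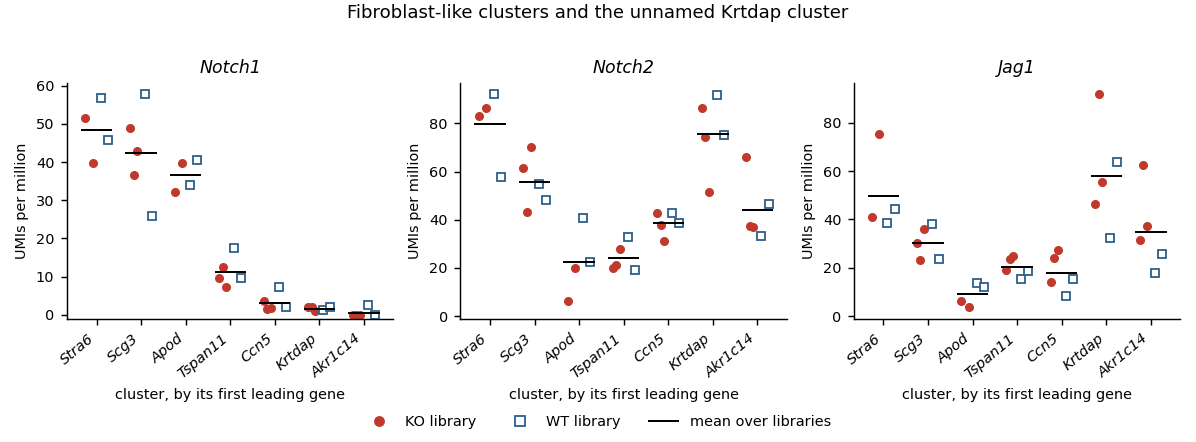
Notch1, Notch2 and Jag1 in CPM in 6 fibroblast-like clusters and the Krtdap cluster, each named by its first leading gene and ordered by Notch1; filled circles are KO libraries, open squares WT libraries and bars means. Notch1 is at 25.7 to 57.7 in the Stra6, Scg3 and Apod clusters and under 8 in the Ccn5, Krtdap and Akr1c14 clusters, while Notch2 and Jag1 are found in all 7.

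Whether the genes differed by genotype was tested in each of 11 classes with at least 2 libraries of each genotype, by edgeR's quasi-likelihood test on summed UMIs, KO over WT. In 41 tests of a member in a class, 0 passed at an adjusted p of 0.05, 0 had an unadjusted p under 0.05, and DESeq2 called 0 as well. The smallest adjusted p was 0.999. Of all genes tested 0% passed in 9 classes, 0.0228% in macrophage-like cells and 0.012% in NK-like cells, and 51 to 267 genes per class had an unadjusted p under 0.05. A difference that misses the threshold with 2 or 3 libraries against 2 does not show that the levels are alike. These fits had no term for the replicate number. In epithelial, fibroblast-like and Krtdap cells libraries 1 and 2 differed in part alike in KO and WT (r of 0.53 to 0.71 across genes). In luminal progenitor-like cells the log2 folds of the receptors were 0.00 ± 0.25 (SE) for Notch1, -0.01 ± 0.24 for Notch2 and -0.04 ± 0.26 for Notch3. In hormone-sensing cells they were -0.19 ± 0.34, -0.44 ± 0.31 and 0.41 ± 0.38, in the same order. Basal cells had 0.49 ± 0.44 for Notch1, -0.18 ± 0.69 for Dll1, -0.07 ± 0.40 for Jag1 and -0.16 ± 0.32 for Jag2.

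The library ranges of KO and WT did not overlap in 6 of the 41 tests, with KO above in 3 and below in 3. Over all genes tested, the ranges did not overlap for 12.7% in luminal progenitor-like, 10.7% in hormone-sensing, 15.2% in T cell-like, 28% in B cell-like, 22% in blood endothelial-like and 16.4% in dendritic-like cells. In the classes where no member stood apart these shares were 10% in fibroblast-like, 10.4% in basal, 14.1% in macrophage-like, 18.3% in NK-like and 11.8% in Krtdap cells. All KO libraries were above all WT libraries for 6.13% of genes in luminal progenitor-like, 5.14% in hormone-sensing and 7.81% in T cell-like cells, and below them for 13.4% in B cell-like, 10.4% in endothelial and 7.99% in dendritic-like cells. The 6 members among 41 tests are near these backgrounds. Jag1 had 1.94, 2.25 and 10.4 CPM in KO and 1.23 and 1.29 in WT luminal progenitor-like cells (log2 fold 1.11 ± 0.72, unadjusted p = 0.16 by edgeR), on 4 to 14 UMIs a library. All 3 KO libraries were above both WT libraries, KO3 by the most. Within the class Jag1 stood at 2.34, 3.10 and 13.2 in the BC006965 cluster of KO1, KO2 and KO3 and at 2.61 in that of WT1, on 1 to 3 UMIs each, against 1.86 and 2.20 in the Plet1 cluster of KO1 and KO2 and 1.01 and 1.33 in that of WT1 and WT2. The BC006965 cluster made up 31.1%, 7.43% and 61.7% of the class in KO1, KO2 and KO3, and 19.1% and 5.96% in WT1 and WT2, and the part of this make-up in the Jag1 difference was not tested. The fold was 0.73 without KO3, the only library made with another Cell Ranger version, and 0.72 to 1.54 over the alternatives. In hormone-sensing cells Jag1 had 23.7, 26.2 and 28.9 in KO and 20.5 and 24.0 in WT by library sums, which overlap before TMM scaling; after it the KO libraries were all above (0.21 ± 0.18). Dll4 in endothelial cells had 75.0 and 62.2 in KO2 and KO3 and 94.9 and 146 in WT1 and WT2 (-0.77 ± 0.39, unadjusted p = 0.104 by edgeR). The fold ranged from -1.08 to -0.43 over the alternatives and was weakest without WT2, which had 23 endothelial cells.

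The remaining cases were in lymphoid and dendritic cells, with 2 KO libraries in B cell-like and 3 in T cell-like and dendritic-like cells, each against 2 WT libraries. Notch1 had 16.5 and 19.0 CPM in KO1 and KO2 and 26.3 and 36.0 in WT1 and WT2 B cell-like cells (-0.85 ± 0.42, unadjusted p = 0.0655 by edgeR). The WT1 value rests on 5 UMIs, and the luminal progenitor markers in those WT1 cells summed to 2833, against 84.1 to 95.1 in the other 3 libraries; their part in the Notch1 level was not tested. In T cell-like cells, where Notch1 acts in development, it had 61.9, 64.2 and 59.2 in KO and 57.4 and 47.2 in WT (0.32 ± 0.26). Over the alternatives this fold ran from 0.078 with looser cells to 0.47 with doublets kept. The Lef1 cluster of this class held 297, 36 and 8 cells in KO and 36 and 85 in WT. Its Cxcr6 cluster held 70, 47 and 70 in KO and 142 and 265 in WT. The part of this make-up in the Notch1 level was not tested. Notch2 in dendritic-like cells had 73.4, 68.4 and 64.4 in KO and 83.8 and 92.5 in WT (-0.32 ± 0.26).

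Of the other pathway genes, 0 of 329 tests in the 11 classes passed edgeR's threshold and 7 had an unadjusted p under 0.05, while DESeq2 called 0 of 447 tests, with 3 at an unadjusted p under 0.05. In luminal progenitor-like cells the median log2 fold of the 34 tested was -0.08, against -0.01 over all genes, and the smallest unadjusted p belonged to Nrarp, with -0.997 ± 0.49, and Itch, a ubiquitin ligase, with -0.29 ± 0.24. In hormone-sensing cells these were Maml3, a coactivator of the Notch complex, and Numb, an inhibitor of Notch, both with -0.37. In basal cells they were Mib2, a ligase that acts on ligands, with 1.53 ± 0.57, and Rfng, of the fringe family, with 1.03 ± 0.55. None of these passed after adjustment.

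**Figure D5:**
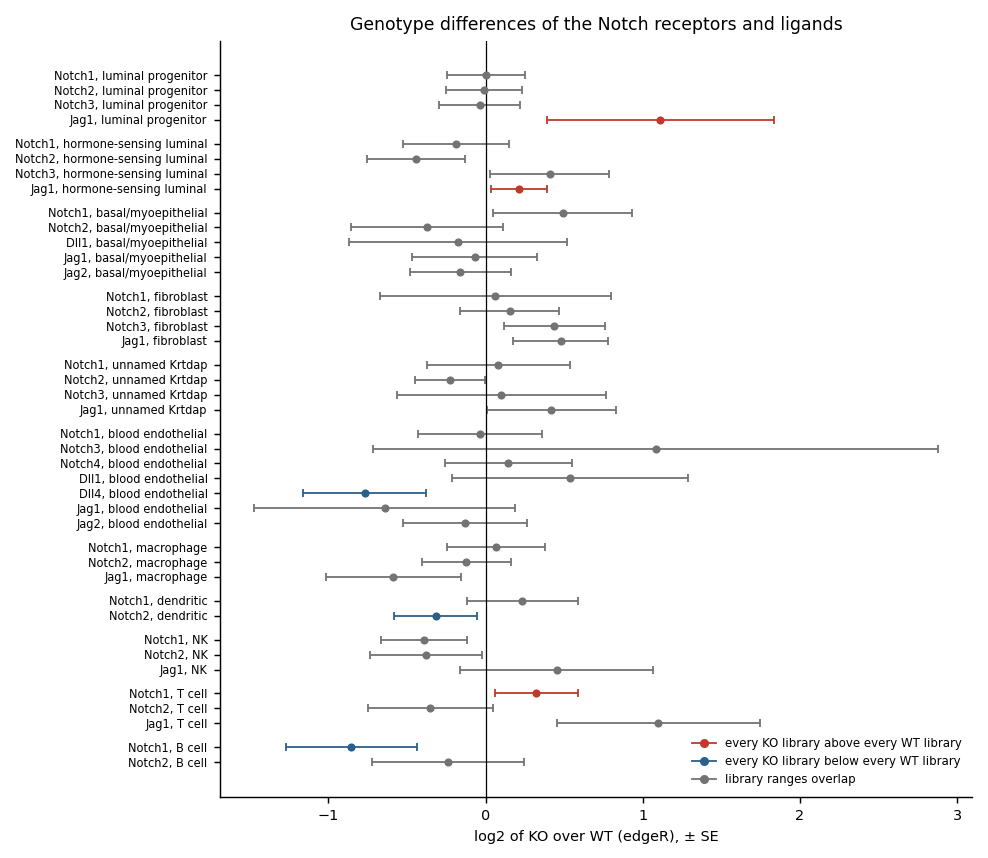
Log2 fold of KO over WT with its SE for the 41 tests of a member in a class, by edgeR; red marks tests in which every KO library is above every WT library, blue those in which every KO library is below, and grey those with overlapping ranges. The folds lie between -0.85 and 1.11, and the widest SE, 1.80, belongs to Notch3 in blood endothelial cells.

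The genes with the most like pattern were read from log2(CPM + 1) over the 16 named classes, among 10539 genes. These points share libraries and sequencing depth, and r is given as a description. Notch4 was most like Nts (r = 0.963), Sox18 (0.961) and Ptprr (0.946), and Dll4 most like Grrp1 (0.977), Cyyr1 (0.971) and Nr5a2 (0.962). Each of these is highest in blood endothelial-like cells. Notch3 was most like Parm1 (0.905), Ntn4 (0.902) and Tspan12 (0.885), all highest in pericyte-like cells. Notch2 was most like Nfam1 (0.888), Atp6v1b2 (0.878) and Cd44 (0.877). Notch1 had the weakest matches of the receptors, with Klf7 (0.778), Rela (0.757) and Tmcc3 (0.753). Among the ligands, Dll1 was most like Ephb1 (0.906), Ackr4 (0.864) and Moxd1 (0.863), Jag2 most like Ackr4 (0.897), Eva1a (0.851) and Eogt (0.850), and Jag1 most like Mical2 (0.891), Prkar1b (0.848) and Rras (0.847). Among the members themselves the highest values were 0.909 for Notch4 with Dll4 and 0.848 for Dll1 with Jag2, and the lowest was -0.60 for Notch2 with Dll1.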

How the data were processed

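Single-cell RNA profiles of mammary gland came from 5 libraries, grouped by the genotype label. The series' design text names 5 mice, and the labels do not tie each library to 1 of them, so p-values measure the spread between libraries. The values used are raw UMI counts per gene and barcode as the authors deposited them; Cell Ranger 6.0.2 (KO1, KO2, WT1, WT2) and 6.1.2 (KO3) are named per the file headers and mm10 per the submitters' processing notes. The sources used here give neither the annotation release, nor the barcode-calling rule, nor the strand setting. Leaving out KO3 leaves the libraries of 1 Cell Ranger version.

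Barcodes were kept if they held 500 or more genes and no more than 15% of UMIs from mitochondrial genes. Doublets were scored against simulated ones, 2 per cell, and the top 0.8% per 1000 barcodes, 1754 cells, were removed. Without the 8 members, 2000 variable genes of counts scaled to 10000 per cell gave 30 principal components, 20 neighbours and Leiden clusters at resolution 1 (Python 3.11.15, leidenalg 0.10.2, igraph 0.11.9). A cluster was named from the marker list with the highest standardised mean, if more of its markers were detected than not, and at least 3, each in 10% of the cells. It was left unnamed if another list had more markers among the 10 leading genes of the cluster or if the markers were not raised. The same held if its depth was low and no marker was among the 10. This rule was revised 2 times after cluster names had been seen and before class-level values of the members were computed. The first rule left the monocyte-like, pericyte-like and erythroid-like clusters unnamed, so Notch3 in pericyte-like and Notch2 in monocyte-like cells are class levels only under the later rules, and the second rule called the Krtdap cluster keratinocyte.

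UMIs were summed per class and library with at least 20 cells. Sums were tested with edgeR 4.0.16 (R 4.3.3, limma 3.58.1; TMM, filterByExpr, robust quasi-likelihood test, Benjamini-Hochberg adjustment over all genes of a fit), KO over WT in each class, and between epithelial classes with the library as a block. The procedure was checked on simulated data. Alternatives included DESeq2 1.42.0. Shares of cells were taken at 2000 UMIs per cell, with 95% Clopper-Pearson intervals. Per-library totals after filtering were 21622977 to 66943155 UMIs in KO and 51074039 to 79693758 in WT.

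The members, the marker lists and the 44 pathway genes were chosen with earlier results of these data known. All 8 members are described. Of the pathway genes up to 4 per comparison are named, those past the threshold with the largest fold, or up to 2 with the smallest unadjusted p where none passed. The 3 genes most like each member had the highest Pearson r of log2(CPM + 1) over classes, among genes with at least 20 CPM in 1 class. No deposited column was left without a sample. Promoter windows are RefSeq's (GRCm38.p6) and gene positions GENCODE's (M21).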

Additional observations from a re-analysis of the deposited data

Results flagged for a closer look

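The Notch1 levels of KO and WT libraries lay in opposite order in B cell-like and T cell-like cells. In B cell-like cells every KO library was below every WT library, with a log2 fold of KO over WT of -0.85, and in T cell-like cells every KO library was above every WT library, with a log2 fold of 0.32. Neither fold passed edgeR's adjusted threshold, and the difference between them was not tested. Over the alternatives the B cell fold ran from -1.07 to -0.52 and the T cell fold from 0.078 to 0.47. No group had enough libraries for a search for single libraries far from the rest.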

How the results depend on the processing

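The epithelial differences kept their counts of 4, 6 and 5 of 6 members past edgeR's threshold in each of the 45 repeats, which left out a library, the block, TMM, the low-count filter or doublet removal, or used DESeq2, another cell filter, resolution 2 or the 2 other naming rules, chosen after seeing the data. The exceptions in sign were folds that did not pass: Notch3 in luminal progenitor-like over hormone-sensing cells (0.0081 with DESeq2; -0.061 to 0.094 with 1 library left out) and Notch2 in hormone-sensing over basal cells (0.069 with no filter; -0.21 to 0.14 with 1 library left out).

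No genotype test of a member passed under any of the 16 other settings, where the smallest adjusted p was 0.12. With the replicate number as a block (KO and WT libraries 1 and 2 only), 0 members passed, and the folds that turned were 0.16 for Dll1 in basal, -0.17 for Notch1 and -0.039 for Notch2 in fibroblast-like, -0.040 for Notch3 in hormone-sensing and -0.23 for Notch1 in luminal progenitor-like cells. The numbers gave only 2 pairs, so they were not taken as pairing. Across genes, which are not independent, the difference of libraries 1 and 2 correlated between KO and WT over 10 classes. There r was 0.71 in fibroblast-like, 0.61 in Krtdap, 0.61 in hormone-sensing, 0.56 in basal and 0.53 in luminal progenitor-like cells. In B cell-like, macrophage-like, dendritic-like, T cell-like and NK-like cells it was 0.17 to 0.21. The genotype fits reported have no term for the replicate number, so spread that follows it counts as spread between libraries. Over all genes the block called 33 in luminal progenitor-like, 18 in Krtdap, 12 in basal, 11 in dendritic-like, 5 in macrophage-like, 4 in NK-like and 3 in hormone-sensing cells. Other settings called up to 57 genes in luminal progenitor-like, 51 in Krtdap, 48 in macrophage-like, 44 in NK-like, 32 in B cell-like, 23 in dendritic-like and 17 in T cell-like cells, against at most 2 per class in the fits reported; the cause was not tested.

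Other genotype folds that changed sign were near 0 or wide. With no low-count filter they were 0.058 for endothelial Notch1 and -0.024 for luminal progenitor Notch1, and with DESeq2 -0.016 for luminal progenitor Notch1 and 0.0074 for Notch2. Stricter cells gave -0.012 for macrophage Notch1. Looser cells gave -0.021 for Notch1 and 0.13 for Jag1 in basal, 0.043 for Notch1 and 0.011 for Jag2 in endothelial, -0.077 for fibroblast Notch1, -0.048 for luminal progenitor Notch1 and -0.0089 for macrophage Notch1. Keeping doublets gave -0.25 for endothelial Notch4, -0.077 for dendritic Notch1, 0.027 for luminal progenitor Notch2 and -0.0056 for NK Jag1. Resolution 2 gave -0.067 for dendritic Notch1, -0.014 for Notch1 and 0.010 for Notch2 in luminal progenitor-like cells, and 0.10 for Krtdap Notch2.

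With 1 library left out, folds ran from -1.04 to 0.33 for B cell Notch2 and -0.76 to 0.053 for T cell Notch2. Basal cells gave -1.08 to 0.52 for Dll1, -0.46 to 0.31 for Jag1 and -0.38 to 0.024 for Jag2. Endothelial cells gave -0.19 to 1.85 for Dll1, -1.74 to 0.46 for Jag1, -0.47 to 0.24 for Jag2, -0.32 to 0.19 for Notch1, -2.28 to 9.23 for Notch3 and -0.19 to 0.51 for Notch4. Dendritic Notch1 gave -0.14 to 0.74, and fibroblast Notch1 and Notch2 -0.62 to 1.39 and -0.11 to 0.49. Hormone-sensing Notch1 and Notch3 gave -0.52 to 0.23 and -0.043 to 0.61, and luminal progenitor Notch1, Notch2 and Notch3 gave -0.23 to 0.12, -0.13 to 0.11 and -0.24 to 0.14. Macrophage Jag1, Notch1 and Notch2 gave -1.04 to 0.0052, -0.21 to 0.23 and -0.29 to 0.029, and Krtdap Jag1, Notch1 and Notch3 gave -0.0076 to 1.05, -0.16 to 0.50 and -0.052 to 0.51. A fit that leaves 1 library in a group assumes that it varies like the others.

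Levels in neutrophil-like cells depended on the cells kept: Notch2 was 193 with stricter cells, 163 with doublets kept and 243 with equal weight per cell. Equal weight gave 68.2 for Notch4 and 100.5 for Jag2 in endothelial cells. Shares of cells moved with depth. At 1000 UMIs they were 6.57% for Dll4, 32.2% for Notch1 and 4.20% for Notch4 in endothelial cells, 20.5% for Notch2 in neutrophil-like and 50.2% for Notch3 in pericyte-like cells. Unthinned they were 51.6% for Dll1 in basal cells, 40.02% for Dll4, 43.2% for Jag2, 81.9% for Notch1 and 38.2% for Notch4 in endothelial cells, and 89.6% for Notch3 in pericyte-like cells. Depth limits Notch4 and Dll4 outside the endothelium, and few cells per library limit the endothelial, basal and pericyte-like levels.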
